A study of Mus musculus with 18 samples.

Results

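Nuclear respiratory chain subunit genes encode the proteins that surround or form the electron-carrying complexes I to IV of the mitochondrial inner membrane. They were taken as every mouse gene identifier in the count tables whose protein-coding symbol was Nduf followed by a, b, c, s or v and a number, Sdha to Sdhd, Uqcr followed by any ending, or Cox4 to Cox8. The muscle isoforms Cox6a2, Cox7a1 and Cox8b were left out of the 64 matching rows, and 61 genes of the 22792 in the tables remained, with 34 in complex I (NADH dehydrogenase), 4 in complex II (succinate dehydrogenase), 8 in complex III (the cytochrome bc1 complex) and 15 in complex IV (cytochrome c oxidase). The rule uses names only.

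Complexes I and II pass electrons from NADH and succinate to ubiquinone, complex III passes them on to cytochrome c, and complex IV hands them to oxygen. Complexes I, III and IV also hold subunits made from mitochondrial DNA, so that each of these complexes draws on nuclear and mitochondrial transcripts, whereas complex II is encoded in the nucleus alone. Tumors differ widely in how far they rely on this chain, and some of its nuclear subunits exist as isoforms that are tied to hypoxia or to particular tissues.

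The tumors came from 4T1 cells, a mouse mammary carcinoma line used as a model of triple-negative breast cancer. The cells (300000 per mouse) were placed in the mammary fat pad of female Balb/c mice aged 8 weeks, drugs were given by gavage from day 7, and whole tumors were taken on day 21 for poly(A) RNA sequencing. The groups were Vehicle (5 tumors), PI3Ki (4 tumors, the pan-PI3K inhibitor CLR457 at 20 mg/kg 2 times a day), SHP2i (4 tumors, the allosteric SHP2 inhibitor SHP099 at 100 mg/kg 1 time a day) and Combo (5 tumors, both drugs at these doses). All groups shared the same line and strain, and the mice were the hosts of a single implanted line, so stroma and immune cells of the mouse were read together with the carcinoma cells.

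Total counts ran from 21161111 to 26620104 per tumor. The 10 carcinoma epithelium markers, which check the labelled tissue, summed to between 707.5 and 1392 CPM (counts per 1000000 counts of the tumor) in every tumor. Markers of other cells moved with treatment. Of 22 skeletal muscle genes, 20 were higher in PI3Ki tumors than in Vehicle tumors, and the 19 of the list that are not respiratory isoforms summed to between 1007 and 2456 CPM there, against 13.66 to 135.4 CPM in Vehicle. Of 12 macrophage markers 8 were lower in SHP2i and 9 in Combo (with 1 higher), and 13 of 15 endothelial markers were lower in Combo and none in SHP2i. In Combo 6 of 9 neutrophil, 5 of 11 T and NK cell, 1 of 10 B and plasma cell and 1 of 10 carcinoma epithelium markers were also lower, 4 of 9 adipocyte markers were higher, and of 10 fibroblast markers 4 were lower and 2 higher. In SHP2i 1 T and NK cell and 1 B and plasma cell marker were lower, and in PI3Ki 1 neutrophil marker was higher and 1 endothelial marker lower. Of all genes tested, 19.7% were lower and 23.9% higher in Combo, 6.54% were lower in SHP2i, and 5.11% were called in PI3Ki. The B and plasma cell and carcinoma epithelium calls in Combo (10% each) were thus below that share. The 2 lower calls in SHP2i (9.09% and 10% of their lists) were near it. The counts of calls understate these 2 lists, however. All 10 B and plasma cell markers had a negative log2 fold change in SHP2i, with a median of -4.06. For 8 of them every SHP2i tumor lay below every Vehicle tumor, as for 10.5% of all genes. All 11 T and NK cell markers were also negative in SHP2i (median -1.04), 3 of them without overlap. In bulk tissue fewer cells of a type and less RNA per cell cannot be told apart, and the part of these shifts in the results on the subunit genes was not tested except where a value is given.

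In Vehicle tumors nearly all of the subunit genes were well expressed, and complex IV genes stood at the highest level for their length. On the scale of CPM per kb of transcript, the median member with at least 1 CPM had a level of 67.3 in complex I, 76.5 in complex II, 110.0 in complex III and 192.0 in complex IV. The highest member of each complex was Ndufb9 in complex I (410.0 CPM per kb), Sdhd in complex II (86.7), Uqcrh in complex III (398.0) and Cox4i1 in complex IV (455.0). Ndufb9 is an accessory subunit of the membrane arm, Uqcrh is the hinge protein of complex III, and Cox4i1 is the ubiquitous form of subunit 4. The isoform genes lay far below the others. Cox4i2, the alternative subunit 4, had 4.41 CPM per kb, Ndufa4l2 had 5.01, Cox6b2, the testis form of subunit 6b, had 0.627, and Cox7b2 had 0.112. Cox8c had no count in any tumor. A count of 0 allows up to 3 counts per tumor, and this limit covers counting error alone. Many of these genes have processed copies elsewhere in the mouse genome, and how reads shared with such copies were counted is not given in the sources used here, so levels compared between genes are uncertain to that extent.

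**Figure D1:**
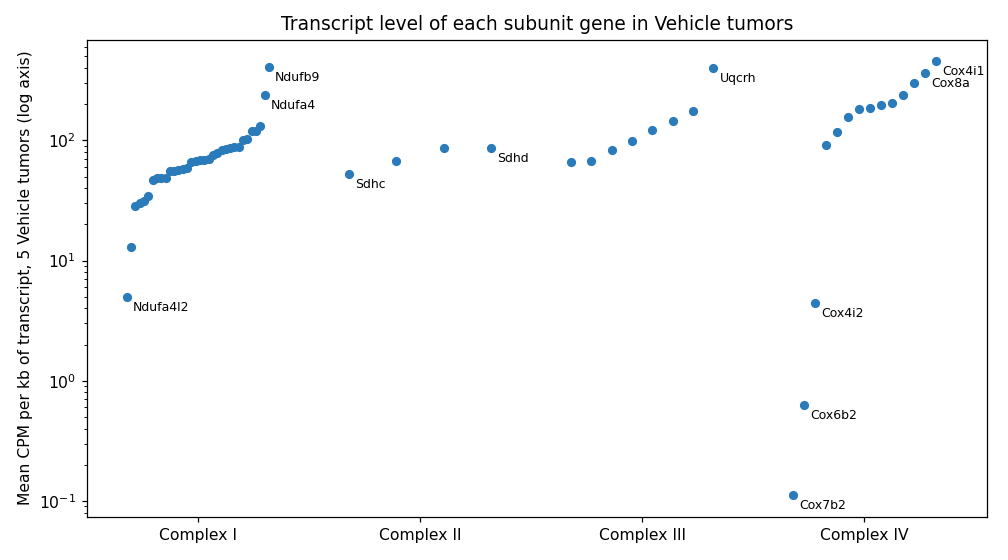
Mean CPM per kb of transcript in the 5 Vehicle tumors (log axis), 1 point for each member above 0, grouped by complex. Cox4i1 reached 455.0 CPM per kb, whereas Cox4i2, Cox6b2 and Cox7b2 lay at 4.41, 0.627 and 0.112.

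For the promoters, RefSeq's windows on build GRCm38.p6 from 250 bases before to 50 bases after the annotated start were available for 48 of the 61 members. They were searched on both strands for GCGCATG (part of the motif of NRF1, a regulator of nuclear genes for mitochondria), CCGGAAG (the ETS core, which GABPA, also called NRF2, recognizes) and AAGATGG (YY1). The letters AAG end the second and begin the third motif, so those matches could overlap. GCGCATG was found for 9 of 48 members (18.8%) and in 3.91% of all 32851 windows, CCGGAAG for 11 (22.9%) against 8.86%, and AAGATGG for 8 (16.7%) against 6.34%. At least 1 of the 3 was present for 47.9% of members and in 17.5% of all windows. The nearer comparison was with the 16152 protein-coding genes in the count tables that had a window. Among them the shares were 5.65% for GCGCATG, 13.5% for CCGGAAG, 7.25% for AAGATGG and 23.5% for any of them. Members and these genes counted once each, for a match in any of their windows, whereas the 32851 windows were counted singly. These are matches of letters and say nothing about binding. The windows of the 3 members with an available window that were lower in both SHP2i and Combo tumors follow, chosen because these members carry the shared change, with the matches in capitals. Cox4i2, the remaining member lower in both, had no window here. Sdhb lies at chr4:140961021-140961320 on the plus strand, Ndufb6 at chr4:40279372-40279671 on the minus strand and Ndufs8 at chr19:3912725-3913024 on the minus strand. In Sdhb the capitals mark the NRF1 letters on the reverse strand and then the ETS core. In Ndufb6 they mark the ETS core on the reverse strand and then the NRF1 letters, and in Ndufs8 the ETS core on the reverse strand.
Sdhb: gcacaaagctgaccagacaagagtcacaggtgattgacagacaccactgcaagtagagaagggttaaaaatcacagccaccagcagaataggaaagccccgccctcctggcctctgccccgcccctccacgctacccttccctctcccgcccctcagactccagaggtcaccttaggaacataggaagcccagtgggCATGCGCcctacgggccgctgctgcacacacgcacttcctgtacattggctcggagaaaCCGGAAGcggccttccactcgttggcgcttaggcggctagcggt
Ndufb6: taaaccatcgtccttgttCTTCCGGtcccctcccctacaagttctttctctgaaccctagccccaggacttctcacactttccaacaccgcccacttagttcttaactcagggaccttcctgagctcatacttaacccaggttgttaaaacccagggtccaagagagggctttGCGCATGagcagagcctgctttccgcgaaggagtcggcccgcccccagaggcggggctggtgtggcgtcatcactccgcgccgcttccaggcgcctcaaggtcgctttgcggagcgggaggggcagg
Ndufs8: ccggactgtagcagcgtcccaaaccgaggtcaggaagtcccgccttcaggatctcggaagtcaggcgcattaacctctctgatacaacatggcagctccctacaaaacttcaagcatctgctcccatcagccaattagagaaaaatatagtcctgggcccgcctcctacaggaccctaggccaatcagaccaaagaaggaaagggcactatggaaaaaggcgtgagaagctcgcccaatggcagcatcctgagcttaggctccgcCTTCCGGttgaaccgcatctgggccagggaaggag

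The first question was whether any member differed among the 4 groups. Of 59 members that passed the filter on low counts (Cox7b2 and Cox8c did not), 19 had an adjusted p under 0.05 (edgeR's quasi-likelihood F test, adjusted over all 15282 genes tested), which is 32.2% of them, against 51.8% of all genes tested. The 19 were 8 of 34 in complex I, 2 of 4 in complex II, 1 of 8 in complex III and 8 of 13 in complex IV. The count was 11 without SHP2i 4 and 32 without SHP2i 3. Over all genes these fits called 7371 and 7956, against 7911 in the main fit. The smallest p values belonged to Cox4i2 (adjusted p = 2.7e-05), Sdhb (6.1e-05), Cox5a (0.00252) and Ndufs8 (0.00287).

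Between PI3Ki and Vehicle tumors no member passed the test (5.11% of all genes did), none had an unadjusted p under 0.05, and DESeq2 called none either. The fitted log2 fold changes lay between -0.22 and 0.23 with a median of 0.03, beside 0.01 for all genes tested. This was so in tumors whose skeletal muscle genes had a median log2 fold change of 5.26. The 3 left-out muscle isoforms were at higher mean levels in PI3Ki, and 2 of them passed the test. Cox6a2, the heart and skeletal muscle form of subunit 6a, averaged 0.706 ± 0.220 CPM in Vehicle (SD, n = 5) and 3.80 ± 1.27 in PI3Ki (n = 4), a log2 fold change of 2.41 ± 0.385 (adjusted p = 0.000975). Cox7a1 averaged 0.822 ± 0.225 and 1.77 ± 0.367 CPM in the same groups, a change of 1.10 ± 0.249 (adjusted p = 0.0151), and Cox8b averaged 0.521 ± 0.332 and 2.23 ± 0.909 CPM and did not pass (adjusted p = 0.0782).

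SHP2i tumors held slightly lower levels of most members. The fitted log2 fold change against Vehicle was negative for 53 of 59, with a median of -0.19 (0.02 for all genes tested), and 4 passed the test, all lower: Cox4i2, Sdhb, Ndufb6 and Ndufs8. That is 6.78% of the members tested, against 6.54% of all genes called lower in this comparison, and 23 members had an unadjusted p under 0.05, as did 4482 of the 15282 genes. The count of 4 was 1 without SHP2i 5, 13 without SHP2i 3, 13 with DESeq2 and 17 in the fit of only the groups compared. Over all genes these fits called 1035, 1412, 2472 and 3192, against 1772 in the main fit. In 8 members every SHP2i tumor lay below every Vehicle tumor, where 10.5% of all genes tested did so.

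Combo tumors held the most calls. Against Vehicle 12 of 59 members passed (20.3%, beside 43.6% of all genes), 11 lower and 1 higher, and the median log2 fold change was -0.13 (0.02 for all genes). The 11 lower members were Ndufa9, Ndufb6 and Ndufs8 of complex I, Sdhb and Sdhd of complex II, Uqcrc1 of complex III, and Cox4i2, Cox5a, Cox6b1, Cox7a2 and Cox7b of complex IV, and Ndufv3 of complex I was higher. Lower calls made up 19.7% of all genes tested and higher calls 23.9%. Only Cox4i2 changed by more than 1 on the log2 scale, as 10.9% of all genes did. All 4 members lower in SHP2i were also lower in Combo, but both comparisons used the same Vehicle tumors. Every Combo tumor was below every Vehicle tumor for 8 members (13.4% of all genes) and above for Ndufv3 (15.5%).

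**Figure D2:**
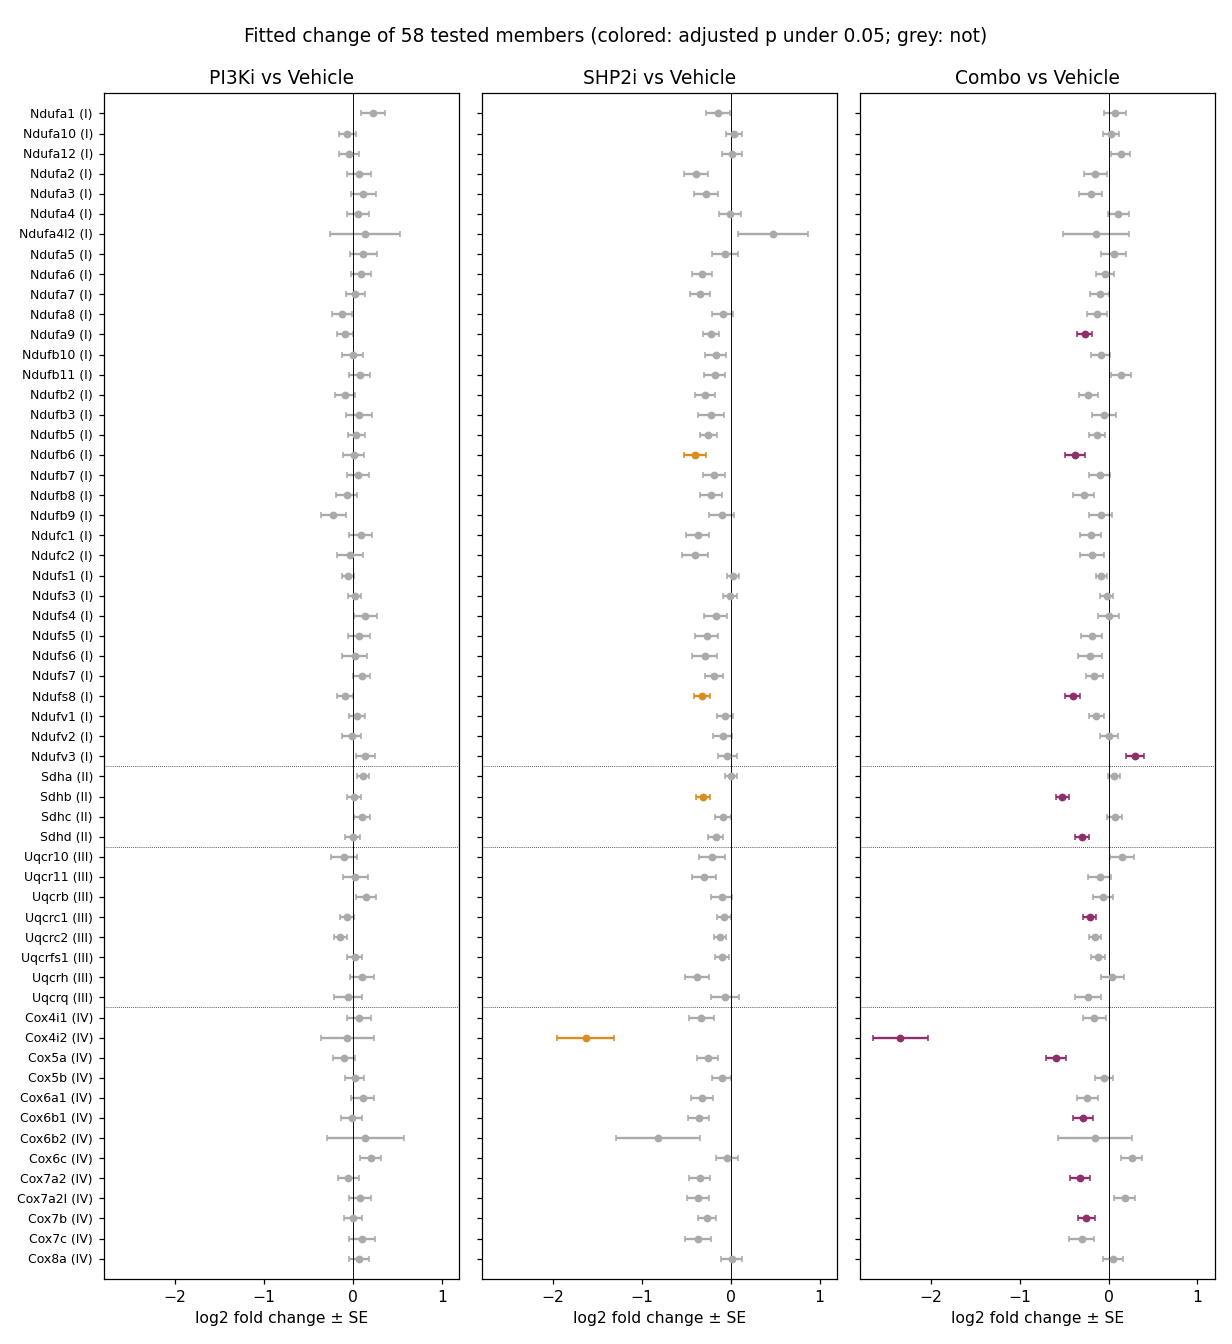
Fitted log2 fold change with its standard error for 58 of the 59 tested members in each treated group against Vehicle, ordered by complex (in parentheses) and divided by dotted lines. Colored points had an adjusted p under 0.05: none in PI3Ki, 4 in SHP2i and 12 in Combo, with Cox4i2 at -1.63 and -2.34 in the last 2 panels.

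The small shift that most members shared in SHP2i and Combo was as large in other genes with short transcripts. Subunit genes are short (their median transcript has 763 bases, and 38 of the 59 tested had under 1000). In SHP2i the 942 other tested genes with transcripts under 1000 bases had a median log2 fold change of -0.19, the same as the members, and the 13551 longer genes 0.03. In Combo the medians were -0.14 and 0.03, and in PI3Ki 0.03 and 0.01. By tumor, the mean log2 CPM of the short genes relative to the Vehicle mean ran from -0.14 to 0.11 in Vehicle, from -0.27 to -0.18 in SHP2i and from -0.38 to -0.10 in Combo, and that of the members from -0.13 to 0.15, from -0.37 to 0.00 and from -0.33 to -0.02. With the level of these short genes as a covariate (an alternative chosen after the data were seen), 1 member was called in SHP2i and 5 in Combo, 3 lower and 2 higher (Ndufv3 and Ndufa1). Over all 15282 genes it left 911 calls in SHP2i and 3713 in Combo, against 1772 and 6657 without it. The short genes separated SHP2i from Vehicle tumors without overlap, so the covariate and that treatment can hardly be told apart. Cox4i2 was lower in both comparisons under that covariate, and Sdhb and Cox5a in Combo. The other members called lower were no longer called. Longer members were also among those called lower in Combo: Ndufa9 (1445 bases), Sdhb (1142), Sdhd (1231), Uqcrc1 (1653) and Cox7b (1001). The rest called lower there had under 1000 bases, and Ndufv3, called higher, had 1582. No median was taken over the longer members alone. Whether transcript length itself has a part was not tested.

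**Figure D3:**
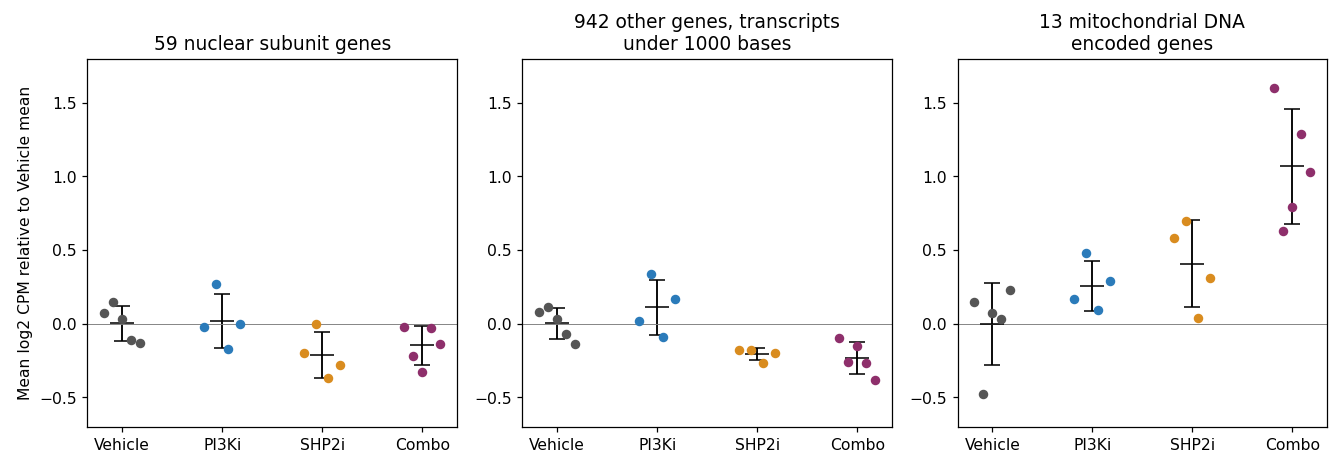
Mean log2 CPM relative to the Vehicle mean in each tumor for the 59 members, for 942 other genes with transcripts under 1000 bases and for the 13 genes of mitochondrial DNA, with the mean and SD of each group. Members and short genes sat near or under 0 in SHP2i and Combo, whereas the mitochondrial genes lay between 0.63 and 1.60 in all 5 Combo tumors.

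Complex by complex, the nuclear members moved little as a group. Against Vehicle the median log2 fold change in SHP2i was -0.18 for complex I, -0.13 for complex II, -0.11 for complex III and -0.33 for complex IV, and in Combo it was -0.10, -0.12, -0.11 and -0.24. In PI3Ki the medians lay between -0.02 and 0.07. The mean log2 CPM of complex IV was the only one of the 4 whose SHP2i tumors (-0.58 to -0.21) lay wholly below the Vehicle tumors (-0.15 to 0.19). Combo tumors ran from -0.48 to -0.14 and overlapped Vehicle. Complex II, which holds Sdhb, was the only one whose Combo tumors (-0.33 to -0.08) lay wholly below Vehicle (-0.05 to 0.08). The complex IV value leaned on Cox4i2. Without it the range was -0.16 to 0.21 in Vehicle, -0.53 to -0.05 in SHP2i and -0.37 to 0.01 in Combo, so that the groups overlapped. The complexes also ranked the tumors of a group alike. Vehicle 2, PI3Ki 2 and SHP2i 3 were the highest of their groups and Combo 3 the lowest of its group in all 4 complexes.

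**Figure D4:**
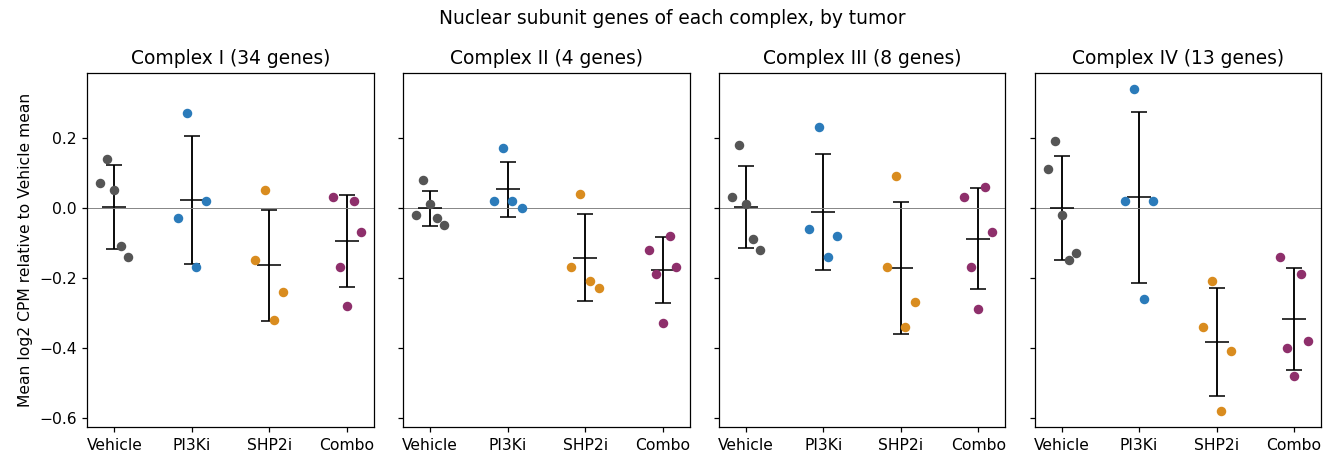
Mean log2 CPM of the tested nuclear members of each complex, relative to the Vehicle mean, for every tumor (points), with the mean and SD of each group. In complex IV the 4 SHP2i tumors lay between -0.58 and -0.21, below the 5 Vehicle tumors. In the other complexes the groups overlapped except where Combo lay below Vehicle and PI3Ki in complex II.

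Complex I holds 7 nuclear core subunits that carry the flavin and iron-sulfur centers or the quinone site, and 1 of them was called. Ndufs8, which binds iron-sulfur clusters, had 47.92, 52.10, 45.96, 45.04 and 45.58 CPM in the Vehicle tumors, 42.08, 53.46, 41.19 and 41.25 in PI3Ki, 36.81, 44.53, 34.45 and 35.41 in SHP2i, and 34.71, 37.20, 34.06, 37.44 and 36.49 in Combo. All SHP2i and Combo tumors were thus below all Vehicle tumors, with SHP2i 3 close to the lowest of them, and PI3Ki 2 stood above its group. The log2 fold change was -0.32 ± 0.0898 (SE) in SHP2i (adjusted p = 0.0267) and -0.40 ± 0.0844 in Combo (adjusted p = 0.00126). The SHP2i call was lost without Vehicle 2 or without SHP2i 2, 4 or 5. The 7 core subunits had a median of -0.06 in SHP2i and -0.08 in Combo. Ndufs7, a core subunit next to the quinone site, was called only between the treated groups, at -0.27 ± 0.0991 in Combo against PI3Ki (adjusted p = 0.0426). That call was lost without Vehicle 3, PI3Ki 1, 2 or 5, or Combo 2 or 3.

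Of the 25 accessory subunits of complex I (Ndufa4 and Ndufa4l2 are described with complex IV), 1 was lower in SHP2i and 2 were lower and 1 higher in Combo, with medians of -0.22 and -0.10. Ndufb6, an accessory subunit of the membrane arm, had 47.04, 55.04, 47.70, 40.12 and 37.86 CPM in Vehicle, 43.04, 55.18, 40.35 and 44.96 in PI3Ki, 37.01, 38.87, 30.49 and 32.05 in SHP2i, and 39.52, 35.41, 29.62, 36.67 and 34.41 in Combo. The SHP2i and Combo tumors sat low but reached into the Vehicle range. The log2 fold change was -0.40 ± 0.120 in SHP2i (adjusted p = 0.0408) and -0.38 ± 0.113 in Combo (adjusted p = 0.0128), and the SHP2i call was lost without any 1 of 6 tumors (Vehicle 1, 2 or 3, or SHP2i 2, 4 or 5). Ndufa9, an accessory subunit near the quinone site, fell by 0.27 ± 0.0845 on the log2 scale in Combo (adjusted p = 0.0164), with all Combo tumors (61.64 to 73.70 CPM) below all Vehicle tumors (78.60 to 86.29 CPM). Ndufc1, a small membrane-arm subunit, differed among the groups (adjusted p = 0.0301), but its change of -0.37 ± 0.129 in SHP2i did not pass (adjusted p = 0.0700).

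Ndufv3, an accessory subunit of the NADH-binding arm, was the member that rose. It had 48.98, 51.36, 52.98, 44.39 and 48.11 CPM in Vehicle, 56.86, 62.82, 41.60 and 55.76 in PI3Ki, 41.44, 55.30, 45.94 and 48.66 in SHP2i, and 65.61, 56.38, 55.44, 64.61 and 61.11 in Combo. The Combo tumors lay above all Vehicle and all SHP2i tumors and overlapped PI3Ki. The log2 fold change was 0.30 ± 0.0998 against Vehicle (adjusted p = 0.0210) and 0.34 ± 0.106 against SHP2i (adjusted p = 0.0290). The first call was lost without Vehicle 1 or 4, and the second without any 1 of 6 tumors (SHP2i 2, 4 or 5, or Combo 1, 4 or 5). Ndufb9, the complex I member at the highest level per kb, had changes from -0.22 to -0.09 against Vehicle, and none passed.

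In complex II the iron-sulfur subunit and 1 of the membrane anchors were lower, and the flavin subunit was not called. Sdhb, which holds the iron-sulfur clusters between the flavin and the membrane, had 95.10, 111.0, 100.2, 93.61 and 90.59 CPM in Vehicle, 95.03, 109.8, 97.42 and 92.68 in PI3Ki, 79.14, 85.64, 78.64 and 73.23 in SHP2i, and 72.43, 72.26, 60.62, 72.73 and 63.33 in Combo. SHP2i lay wholly below Vehicle and Combo wholly below SHP2i. The log2 fold change was -0.31 ± 0.0790 in SHP2i (adjusted p = 0.0180) and -0.52 ± 0.0744 in Combo (adjusted p = 3.9e-05), and Combo was lower than PI3Ki by -0.53 ± 0.0784 (adjusted p = 8.1e-05). The difference between Combo and SHP2i, -0.21 ± 0.0786, did not pass (adjusted p = 0.0601). The Combo call held under all 27 alternatives, with values from -0.59 to -0.42, and the SHP2i call was lost without SHP2i 5.

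Sdhd, a membrane anchor that helps form the ubiquinone site, had 105.1, 114.4, 109.1, 101.4 and 103.5 CPM in Vehicle, 102.6, 126.1, 99.62 and 97.17 in PI3Ki, 95.79, 107.3, 89.55 and 87.91 in SHP2i, and 97.03, 83.75, 78.45, 91.82 and 81.57 in Combo. Combo lay wholly below Vehicle, with a log2 fold change of -0.30 ± 0.0818 (adjusted p = 0.00680). Sdha, the flavin-bearing catalytic subunit, ranged from 185.7 to 201.6 CPM in Vehicle and from 188.0 to 214.1 in Combo, a log2 fold change of 0.06 ± 0.0638 (adjusted p = 0.460). Sdhc, the other anchor, changed by 0.07 ± 0.0848 in Combo (adjusted p = 0.546). Whether the change of Sdhb differed from that of Sdha or Sdhc was not tested.

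Complex III had 1 call against Vehicle. Uqcrc1, a core protein of the complex, had 230.5 to 257.7 CPM in Vehicle and 185.9 to 219.2 in Combo, without overlap, and changed by -0.21 ± 0.0741 (adjusted p = 0.0322). The call was lost without Vehicle 2, Combo 1 or Combo 3. Uqcrh had 225.0, 248.3, 220.5, 194.9 and 198.9 CPM in Vehicle, 172.1, 201.6, 139.7 and 156.8 in SHP2i, and 216.8, 195.1, 183.4, 285.9 and 236.6 in Combo. SHP2i was the lowest group and Combo spread the widest, and Combo against SHP2i gave 0.42 ± 0.138 (adjusted p = 0.0384), a call lost without SHP2i 2, 4 or 5 or Combo 4 or 5. Uqcr10, a small subunit, ranged from -0.21 to 0.15 in the 3 comparisons with Vehicle and was not called.

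Complex IV held the largest fall of all members. Cox4i2 replaces Cox4i1 in a few tissues, above all the lung, and is known as a gene for oxygen-responsive regulation of the oxidase. It had 3.92, 3.25, 2.36, 3.04 and 3.53 CPM in Vehicle, 4.03, 4.24, 1.85 and 2.20 in PI3Ki, 1.13, 0.684, 1.25 and 1.07 in SHP2i, and 0.963, 0.537, 0.857, 0.475 and 0.310 in Combo. Every SHP2i and Combo tumor was below every Vehicle and PI3Ki tumor. The values rest on 54 to 85 reads per Vehicle tumor, 15 to 30 per SHP2i tumor and 7 to 22 per Combo tumor. The log2 fold change was -1.63 ± 0.321 in SHP2i (adjusted p = 0.00378) and -2.34 ± 0.310 in Combo (adjusted p = 2e-05), and -0.06 ± 0.298 in PI3Ki (adjusted p = 0.944). Combo against SHP2i, at -0.71 ± 0.332, did not pass (adjusted p = 0.131). Both calls held under all 27 alternatives, between -1.75 and -1.25 in SHP2i and between -2.54 and -1.97 in Combo. The gene (RefSeq, GRCm38.p6, chr2:152753916-152765039) overlaps Bcl2l1 and Gm32057 in the annotation, and reads of overlapping genes can be told apart only as far as the counting used strand, which is not given in the sources used here.

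Cox4i2 is also a marker of pericytes, the cells around small vessels, so other pericyte genes were looked at after its values were seen. Of 10, 3 were lower in Combo (Mcam, -1.65, Higd1b, -1.60, and Kcnj8, -0.70) and 1 higher (Notch3, 1.15), with summed levels of 280.3 to 437.7 CPM in Combo and 325.5 to 457.9 in Vehicle. The share called in either direction was 40% in Combo and 10% in SHP2i, beside 43.6% and 11.6% of all genes. Lower calls alone were 3 of 10 in Combo, beside 19.7% of all genes, and 0 of 10 in SHP2i, beside 6.54%. Every Combo tumor was below every Vehicle tumor for 3 of 10, as for 13.4% of all genes. In SHP2i 1 was called, Notch3 at 1.14 and higher, and Higd1b stood at -0.26 ± 0.286 (adjusted p = 0.578), with a summed level of 394.0 to 529.5 CPM. Pdgfrb, also on this list, changed by 0.28 in SHP2i and 0.26 in Combo and was not called. The part of pericytes in the change of Cox4i2 was not tested. Cox4i1 had 301.8 to 398.7 CPM in Vehicle, 238.5 to 338.1 in SHP2i and 246.0 to 380.8 in Combo, and its changes of -0.33 ± 0.141 and -0.16 ± 0.132 did not pass (adjusted p = 0.133 and 0.331).

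Cox5a (chr9:57517328-57532427), a subunit on the matrix side of the oxidase, had 138.0, 147.3, 133.2, 121.8 and 124.8 CPM in Vehicle, 108.0, 159.2, 115.4 and 114.1 in PI3Ki, 117.8, 130.8, 98.80 and 98.30 in SHP2i, and 99.22, 84.19, 80.90, 100.5 and 78.47 in Combo. The Combo tumors were below all Vehicle and all PI3Ki tumors, and PI3Ki 2 stood far above its group. The log2 fold change was -0.59 ± 0.113 in Combo (adjusted p = 0.000591), held under all 27 alternatives, and -0.26 ± 0.120 in SHP2i, which did not pass (adjusted p = 0.166). Against PI3Ki, Combo was lower by -0.49 ± 0.119 (adjusted p = 0.00431).

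Of the other ubiquitous subunits of complex IV, 3 were called lower in Combo, with smaller changes than Cox5a. Cox6b1, which faces the intermembrane space, changed by -0.29 ± 0.110 (adjusted p = 0.0424), Cox7a2, the form of subunit 7a used outside muscle, by -0.32 ± 0.109 (adjusted p = 0.0263), and Cox7b by -0.25 ± 0.0962 (adjusted p = 0.0438). These 3 calls did not hold without single tumors. That of Cox6b1 was lost without any 1 of Vehicle 1, 2 and 3 and Combo 2, 3 and 5, that of Cox7a2 without Vehicle 2 or Combo 2, 3 or 5, and that of Cox7b without any 1 of Vehicle 1, 2 and 3, PI3Ki 1 and Combo 2, 3 and 5. Cox7a2 overlaps Tmem30a and Gm51685 in the annotation. Cox6a1, the form of subunit 6a used outside muscle, changed by -0.24 ± 0.119 against Vehicle (adjusted p = 0.113) and by -0.35 ± 0.125 against PI3Ki (adjusted p = 0.0364), a call lost without PI3Ki 2 or 5 or Combo 2, 3 or 5. Cox8a, the ubiquitous subunit 8, changed by 0.05 ± 0.108 in Combo (adjusted p = 0.726).

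Cox7a2l, also known as SCAFI, is related to subunit 7a and has been described as joining complexes III and IV in supercomplexes. Whether it does so in this mouse strain was not tested. It had 203.9, 231.8, 220.8, 201.5 and 200.4 CPM in Vehicle, 251.3, 234.6, 203.3 and 203.5 in PI3Ki, 154.3, 191.8, 145.8 and 165.5 in SHP2i, and 209.7, 207.6, 197.9, 296.9 and 287.5 in Combo. All SHP2i tumors lay below all the others, while Combo 4 and Combo 5 stood at the top. Combo was higher than SHP2i by 0.55 ± 0.125 (adjusted p = 0.00590), a call that held under all 27 alternatives. The changes against Vehicle, -0.37 ± 0.125 in SHP2i and 0.18 ± 0.117 in Combo, did not pass (adjusted p = 0.0662 and 0.225).

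**Figure D5:**
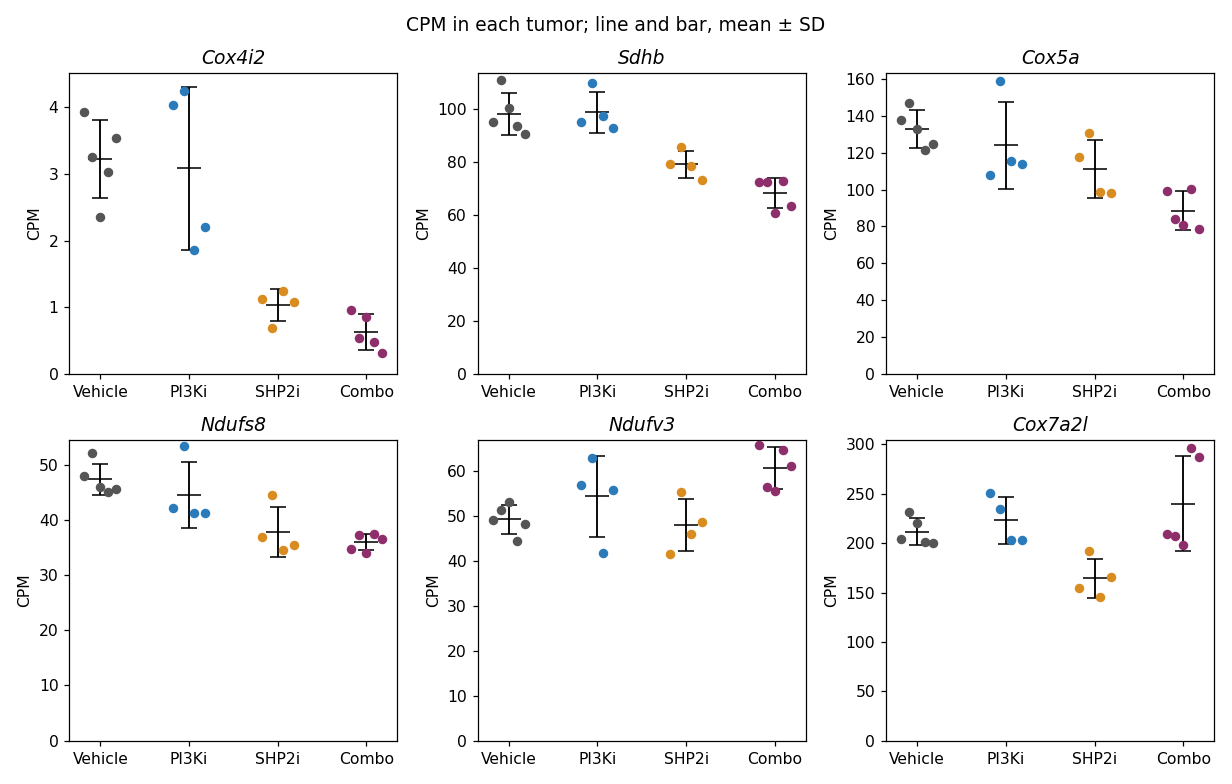
CPM in each tumor for 6 members, on linear axes that start at 0, with the mean and SD of each group. Cox4i2 fell from 2.36 to 3.92 CPM in Vehicle to 0.310 to 0.963 in Combo, Sdhb, Cox5a and Ndufs8 were lower in Combo without overlap with Vehicle, and Ndufv3 and Cox7a2l were higher in Combo than in SHP2i.

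Ndufa4 is named for complex I but is known as a subunit of complex IV, and Ndufa4l2 is its hypoxia-induced relative. Ndufa4 ranged from 111.7 to 138.1 CPM in Vehicle and from 109.0 to 160.5 in Combo and was not called. Ndufa4l2 had 6.97, 3.60, 6.19, 3.41 and 3.23 CPM in Vehicle, 5.47, 5.66, 8.33 and 6.58 in SHP2i, and 4.60, 6.71, 6.16, 1.21 and 2.48 in Combo. The groups overlapped, with Combo 4 the lowest, and the change in Combo was -0.14 ± 0.376 (adjusted p = 0.784). Among 12 hypoxia targets, a list added after the data were seen, 5 were higher in Combo (41.7%, beside 23.9% of all genes called higher), among them Egln3 (1.27 ± 0.108) and Ndrg1 (1.65 ± 0.209). Cox6b2 stood at 4 to 14 reads per Vehicle tumor and was not called, and Cox7b2 had at most 3 reads in any tumor.

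Combo was also set against each single drug. Against PI3Ki 9 members were lower and none higher (15.3%, beside 37.7% of all genes in both directions and 17.8% lower), with 4 of them in complex IV (Cox4i2, Cox5a, Cox6a1 and Cox7c). Cox7c is a small ubiquitous subunit, and its change was -0.40 ± 0.146 (adjusted p = 0.0401), a call lost without any 1 of PI3Ki 1, 2 and 5 and Combo 2, 3 and 5 and in the fit of only the groups compared. The count of 9 was 5 without PI3Ki 2 and 15 without PI3Ki 3. Over all genes these fits called 4271 and 5721, against 5756 in the main fit. With the level of the muscle genes as a covariate, Combo against PI3Ki had 0 calls among members and 10 among all 15282 genes. Without that covariate 5756 of all genes were called. Muscle genes separate PI3Ki tumors from all others, so that the covariate and the treatment can hardly be told apart. Against SHP2i the 3 calls were Ndufv3, Uqcrh and Cox7a2l, all higher in Combo (beside 22.1% of all genes in both directions and 11.8% higher), and the count was 1 without SHP2i 2 and 8 without SHP2i 3. Over all genes these fits called 2204 and 3084, against 3375 in the main fit. In the interaction, which tests whether the Combo change departs from the sum of both single changes on the log2 scale, no member passed (2.47% of all genes did), 2 had an unadjusted p under 0.05, and DESeq2 called none.

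All 13 protein genes of mitochondrial DNA were higher in Combo than in Vehicle, where 11 nuclear members were lower and 1 higher. Of all genes tested 23.9% were called higher there. The median log2 fold change of the 13 was 1.11. For each of them every Combo tumor lay above every Vehicle tumor, as for 15.5% of all genes. In SHP2i 1 of 13 was higher (7.69%, median 0.45), beside 772 of all 15282 genes. In PI3Ki none passed (median 0.24), beside 5.11% of all genes. COX1, the catalytic subunit of complex IV, averaged 3762 ± 692 CPM in Vehicle (SD, n = 5) and 8329 ± 2090 in Combo (n = 5), and changed by 1.15 ± 0.167 (adjusted p = 4.8e-05). CYTB of complex III changed by 1.31 ± 0.184 (adjusted p = 3.5e-05), and ND4 and ND4L of complex I by 1.32 ± 0.171 and 1.39 ± 0.171 (adjusted p = 1.7e-05 and 9.9e-06). The mean log2 CPM of the mitochondrial members of complex IV was 1.02 ± 0.39 above Vehicle in Combo (SD, n = 5), where that of the nuclear members stood at -0.32 ± 0.15, and at -0.15 ± 0.16 without Cox4i2. These transcripts have short poly(A) tails, and how well the selection of poly(A) RNA caught them was not tested.

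The neighbors of the chain in the mitochondrion were read from lists of their own. Of 18 ATP synthase genes 2 were lower in Combo, Atp5b (-0.26 ± 0.0806) and Atp5d (-0.28 ± 0.0773), which is 11.1% of the list beside 19.7% of all genes called lower. Atpif1, the inhibitor of the enzyme, was lower in SHP2i (-0.51 ± 0.141). Of 9 cytochrome and carrier genes 4 were lower in Combo (44.4%), among them Cyc1, the cytochrome c1 of complex III (-0.37 ± 0.0825, adjusted p = 0.00165), and Cycs, the cytochrome c that carries electrons to complex IV (-0.61 ± 0.132, adjusted p = 0.00142). In SHP2i their changes were 0.07 and -0.01, and neither passed. Of 42 assembly factors 6 were lower and 2 higher in Combo (19.0% called, beside 43.6% of all genes). Ndufaf4, which helps to build complex I, was lower in both PI3Ki (-0.76 ± 0.126, adjusted p = 0.00139) and Combo (-0.62 ± 0.117, adjusted p = 0.000514), and Foxred1, another such factor, was higher in SHP2i (0.26 ± 0.0669).

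Of 17 genes of the tricarboxylic acid cycle, which delivers NADH and succinate to the chain, 4 were lower and 1 higher in Combo (29.4% called, beside 43.6% of all genes). Idh3a, a subunit of isocitrate dehydrogenase, changed by -0.38 ± 0.0782 (adjusted p = 0.00104), and Cs, the citrate synthase, by -0.17 (adjusted p = 0.0692). Of 16 regulators of mitochondrial biogenesis 3 were higher and 1 lower in Combo (25% called). Foxo3, a transcription factor restrained by PI3K and AKT, averaged 55.7 ± 8.00 CPM in Vehicle and 116.5 ± 28.4 in Combo, a change of 1.07 ± 0.140 (adjusted p = 1.9e-05). In PI3Ki alone 0 of the 16 regulators, Foxo3 included, were called higher and 2 lower (12.5% called, beside 5.11% of all genes). Myc, a driver of growth and of many mitochondrial genes, was lower in PI3Ki (-0.53 ± 0.101, adjusted p = 0.00456) and not called in Combo (-0.18, adjusted p = 0.128). Nothing here tests whether these regulators have a part in the changes of the subunit genes.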

How the data were processed

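Per the labels and the study's methods, the authors selected poly(A) RNA from whole tumors, built NEBNext Ultra II directional libraries, sequenced them paired-end on a NextSeq 500, trimmed reads with cutadapt, mapped them to GRCm38 with STAR (2-pass) and used the qCount function (QuasR) for counting. The files as deposited hold raw counts for each Entrez gene. Versions, annotation and strand setting are not given in the sources used here, and the submitters' processing notes also name hg19.

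All 18 tumors entered 1 fit in edgeR 4.0.16 (quasi-likelihood, TMM scaling, R 4.3.3). Genes were kept by filterByExpr (minimum count 10, minimum total 15), p was adjusted by Benjamini-Hochberg over 15282 genes, and a gene was called at an adjusted p under 0.05. CPM used TMM-scaled totals, and log2 CPM a prior count of 2. Identifiers were named through RefSeq (22760 of 22792 matched, and the rest held 0.0193% of counts). Transcript length was the median over principal GENCODE M21 transcripts.

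Named members were the 3 with the smallest p among groups and the highest per kb in each complex, all Sdh genes, the isoforms, and up to 3 called members with the largest change per direction against Vehicle. Other members called in a comparison are also given, chosen after their values were seen. Each other list has its 2 genes with the smallest p and any others called that are named.

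Alternatives were DESeq2 1.42.0, RLE scaling, total counts as scaling, no filter, a mean of at least 1 CPM, a block for replicate number, a muscle covariate, a fit of only the groups compared, each tumor left out, and, added later, a short-transcript covariate. The fits were tested on simulated data. 1 member is counted but not reported here by name. The members and lists were chosen with earlier results of these data known. The study gives 4 or 5 animals in each group, the same as the numbers of tumors, so p values measure the spread between animals as far as each tumor came from its own.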

Additional observations from a re-analysis of the deposited data

Results flagged for a closer look

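In 6 of 124 groups of values tested for a lone extreme tumor (31 measures in 4 groups), 1 tumor stood apart, and chance alone marks about 1 in 20 groups. PI3Ki 2 was high for Cox5a (159.2 CPM, the others 108.0 to 115.4), for Ndufs8 (53.46 CPM, the others 41.19 to 42.08) and for the complex II mean (0.17 on the log2 scale, the others 0.00 to 0.02). PI3Ki 2 was also the highest of its group in summed markers of neutrophils (2041 CPM, the others 155.2 to 260.2), macrophages (7106 CPM, the others 3118 to 4266) and fibroblasts (15440 CPM, the others 4652 to 10390), and their part in its values was not tested. Vehicle 2 was high for Uqcrc1 (257.7 CPM, the others 230.5 to 237.6). Cox7b2 was 0 in PI3Ki 3 and in SHP2i 4, at most 2 reads in the other tumors of those groups. Without PI3Ki 2 the count of members called between Combo and PI3Ki was 5, and that of all genes 4271 (9 and 5756 with it).

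No member passed the test of whether the Combo change departed from the sum of the single-drug changes. Among the other genes named, the interaction passed for Myc (0.63, adjusted p = 0.0286), the endothelial Cdh5 (-1.14, adjusted p = 0.0154), the neutrophil Retnlg (-4.27, adjusted p = 0.0332) and S100a9 (-4.54, adjusted p = 0.0266), the muscle Tnni2 (-3.44, adjusted p = 0.0150) and Tnnt3 (-3.60, adjusted p = 0.0141), and Des (-3.81, adjusted p = 0.00258) and Mcam (-0.93, adjusted p = 0.00917) of the pericyte list.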

How the results depend on the processing

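Of 28 calls for 17 members, each under 27 alternatives, 653 of 756 values kept direction and call, 101 lost the call and 2 reversed (Cox6a1 at 0.03 and Cox7c at 0.05 in Combo against PI3Ki with the short-transcript covariate). PI3Ki against Vehicle and the interaction had 0 members called under every alternative.

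The count of members differing among groups (19) was 8 with the replicate block, 10 with the muscle covariate and 6 with the short-transcript covariate. Over all genes (7911 in the main fit) these settings called 7101, 5821 and 5217. For members in SHP2i against Vehicle (4) it was 13 with DESeq2, 10 with total counts, 8 with the muscle covariate, 17 with only the groups compared and 1 with the short-transcript covariate. All genes called there (1772) were 2472, 1817, 1552, 3192 and 911 in the same order. For members in Combo against Vehicle (12) it was 21 with total counts and 5 with the short-transcript covariate. All genes called there (6657) were 6611 and 3713. For members in Combo against PI3Ki (9) it was 14 with total counts, 0 with the muscle covariate and 2 with the short-transcript covariate. All genes called there (5756) were 5580, 10 and 1281. For members in Combo against SHP2i (3) it was 5 with DESeq2 and with total counts, 1 with the replicate block, and 6 with the muscle and the short-transcript covariate. All genes called there (3375) were 3921, 3352, 3006, 3655 and 3923. Leaving out each tumor gave 11 to 32 members among groups (least without SHP2i 4, most without SHP2i 3), 1 to 13 in SHP2i (without SHP2i 5 and SHP2i 3), 9 to 18 in Combo (without Vehicle 2 and PI3Ki 2), 5 to 15 in Combo against PI3Ki (without PI3Ki 2 and PI3Ki 3) and 1 to 8 in Combo against SHP2i (without SHP2i 2 and SHP2i 3). In the same order, all genes called were 7371 and 7956, 1035 and 1412, 5640 and 6877, 4271 and 5721, and 2204 and 3084. The cause was not tested.

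The complex medians and means kept within 1 SD except for medians in PI3Ki with the muscle covariate (0.26 for complex I, 0.29 for III and 0.38 for IV) and with the short-transcript covariate (-0.01 for complex I and -0.09 for IV in SHP2i, and 0.09 for I, 0.15 for III and 0.02 for IV in Combo). Over single tumors left out they ran from -0.27 to -0.14 for complex I and from -0.44 to -0.26 for IV in SHP2i.

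Replicate numbers did not visibly pair the tumors: of 24 same-numbered pairs 8 had a correlation of deviations over 0.1 (lowest -0.42, median 0.018). The median over other pairs was -0.006. These values cannot show whether same-numbered tumors shared a batch, and the replicate block is given only as an alternative. Depth and spread limited what could be seen, since standard errors of the log2 changes against Vehicle ran from 0.0629 (Ndufs1) to 0.475 (Cox6b2).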
